A study of Mus musculus with 36 samples.

Results

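The immediate-early genes here are a list of 41 genes. Cells transcribe genes of this class within minutes of a stimulus without first making new protein, and this was not tested for each member. Each was read from 1 probe set, the one with the highest mean over all arrays, and used where its log2 value was above 4 in at least 3 arrays. All 41 had such a probe set among the 18193 genes named on the array, and 40 of them passed the filter, as did 9538 genes in all. The gene left out, Gem, a small GTPase of the RGK family, averaged log2 3.41 and was above 4 in 2 arrays.

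The study measured newly transcribed RNA on 36 Affymetrix arrays. The cells were NIH-3T3, an established line of mouse embryo fibroblasts, grown in DMEM with newborn calf serum and at 80% density when the experiment began. Every group received fresh, prewarmed medium at time 0, and this medium held 100 U/ml IFN alpha, 100 U/ml IFN gamma or mock. Mock arrays therefore carry the medium change too, and no group without it was analysed here. RNA made in a window was tagged by 4-thiouridine (4sU), a uridine analog taken up into growing transcripts, and then separated from older RNA. The windows were 0-30, 30-60 and 150-180 min after the medium change with 500 µM 4sU, and 0-60 min with 200 µM. Each of the 12 groups of treatment and window had 3 arrays. The labels number these arrays but do not say that they came from separate cultures, so a p-value here measures the spread between arrays and no more.

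Immediate-early genes answer growth factors, serum, stress and some cytokines. MAP kinase signalling reaches factors already bound at their promoters, such as SRF with its ternary complex partners at the CArG box, and CREB at the cAMP response element (CRE). Many members then encode transcription factors of their own (FOS and JUN proteins, which pair as AP-1, and the EGR, NR4A and KLF families). Others end the signal: DUSP proteins remove phosphate from MAP kinases, and ZFP36 proteins speed the decay of AU-rich mRNAs, cytokine mRNAs among them. Interferons act on their own target genes through other promoter elements, and for IFN gamma the best known is the gamma-activated sequence (GAS).

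Promoter windows of RefSeq (GRCm38.p6, from 250 bases before to 50 after each start site) were at hand for 31 of the 41 genes. The stretches below are the 150 bases before the start site, on the gene's strand, of 4 members whose values the results turn on. Capitals mark the CRE (TGACGTCA), the CRE core (TGACG or its reverse complement, which also lies within the CRE), the GAS motif (TTCNNNGAA) and the CArG box. Fos lies at chr12:85473740-85473889 on the plus strand, Zfp36 at chr7:28379229-28379378 on the minus strand, Btg1 at chr10:96616851-96617000 on the plus strand and Dusp1 at chr17:26508473-26508622 on the minus strand.
Fos: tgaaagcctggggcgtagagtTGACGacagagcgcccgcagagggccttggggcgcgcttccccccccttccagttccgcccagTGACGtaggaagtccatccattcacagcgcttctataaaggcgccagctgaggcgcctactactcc
Zfp36: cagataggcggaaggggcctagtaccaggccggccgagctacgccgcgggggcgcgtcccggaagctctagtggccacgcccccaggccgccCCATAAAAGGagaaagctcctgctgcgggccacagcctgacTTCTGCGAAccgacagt
Btg1: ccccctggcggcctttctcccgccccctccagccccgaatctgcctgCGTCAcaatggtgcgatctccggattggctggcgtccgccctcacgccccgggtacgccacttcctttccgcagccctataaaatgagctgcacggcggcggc
Dusp1: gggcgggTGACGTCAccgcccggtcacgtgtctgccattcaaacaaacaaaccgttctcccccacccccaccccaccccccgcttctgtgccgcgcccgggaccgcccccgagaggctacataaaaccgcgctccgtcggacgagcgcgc

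In Zfp36 the capitals mark a CArG box and, nearer the start site, a GAS motif. In Dusp1 they mark a full CRE, and in Fos and Btg1 CRE cores only. Searched on both strands of the windows, the GAS motif was in 4 of 31 members (Maff, Csrnp1, Zfp36 and Sgk1), or 12.9%, against 9.55% of 27025 genes. The CRE was in 4 members (Maff, Btg2, Dusp1 and Plk2), also 12.9%, against 2.03% of genes. The CArG box was in 4 (Egr2, Srf, Zfp36 and Dusp5), against 1.81% of genes. The CRE core was in 20 members (64.5%, against 23% of genes), and the GC box (GGGCGG) that EGR and SP factors share was in 27 (87.1%, against 38.2%). A gene counted if any of its windows matched, and some members, Maff among them, had several windows. The 27025 genes had 32851 windows and were not limited to those tested on the arrays. The part of window number and of promoter type in these shares was not tested. These are matches of letters, not measured binding sites. Motifs that lie farther from the start site than the windows reach were not searched, so a gene without a match can still hold one.

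The arrays carried fibroblast RNA and answered the interferons. All 6 fibroblast markers were tested, with Vim, an intermediate filament gene, at log2 13.15 and Col1a2, a collagen gene, at 12.73, while of 6 macrophage markers only Cd14 passed (6.17) and of 4 epithelial and 4 endothelial markers 0 did. Irf1, an interferon-induced transcription factor, was higher than in mock by 5.14 at 0-30 min of IFN gamma and by 2.15 at 0-30 min of IFN alpha. Mock 0-60 min array 1 stood apart: its 3′ minus 5′ Gapdh difference was 2.67, against -0.31 and -0.30 in the other arrays of its group, and its lowest correlation with them was 0.909. At 0-60 min the Gapdh difference was also highest in array 1 of IFN alpha (0.25, against -0.33 and -0.36) and of IFN gamma (0.11, against -0.36 and -0.42). In the other windows it was higher in IFN gamma 150-180 min array 3 (0.51, against -0.49 and -0.27 in its group). It was higher as well in array 2 of every treatment at 30-60 min (0.56 to 0.73, against -0.57 to -0.01 in arrays 1 and 3). The spiked-in control bioC had a mean of 7.14 in the 0-30 min arrays, of 9 in the 30-60 min arrays and of 6.8 in the 150-180 min arrays, and within the 30-60 min window it went by array number in all treatments. Each window's arrays share such values, so time and the handling of a window's arrays cannot be told apart. Comparisons of interferon with mock lie within a window.

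The median of the 40 mock means was 11.50 for the window of 0-30 min, 11.73 for 30-60 min and 10.43 for 150-180 min. Egr1, a zinc finger factor, and Sgk1, a serum-induced kinase, reached 13.74 and 14.18, close to the highest value of the whole table, 14.82. Nr4a3, a nuclear receptor, averaged 3.65 and was above 4 in 13 arrays, so its values lie near background. No 0-30 min array and no IFN gamma array was among these 13, so Nr4a3 passed the filter only through groups where it was higher. Its calls against 0-30 min or IFN gamma arrays, and the counts that hold them, carry that limit.

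How transcription of these genes ran after the medium change alone was asked by comparing the mock arrays of the 3 windows. Transcription was high in the first hour and lower 150-180 min after the change for most members. Of the 40, 10 had their highest mock mean at 0-30 min, 30 at 30-60 min and 0 at 150-180 min, against 35.5%, 18.4% and 46.1% of all genes. With the arrays shifted to a common median over the tested genes the counts were 4, 36 and 0, against 23%, 44.6% and 32.4%. Highest at 0-30 min with both scalings were Fosb, Jund, Atf3 and Klf2, whereas Fos, Jun, Srf, Ier2, Btg1 and Rhob were so only as deposited. Cell markers moved between these windows too. From 0-30 to 30-60 min Col3a1, a fibroblast collagen gene, fell by 1.76 and Cd14 by 1.86, and from 30-60 to 150-180 min they rose by 1.79 and 1.26. Fn1, fibronectin, rose by 0.46 and then fell by 0.65. Of the 6 fibroblast markers 1 rose and 2 fell at the first step, and 3 rose and 1 fell at the second. Their part in the results was not tested.

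Of the AP-1 genes, Fos read log2 12.31, 12.59 and 12.65 in the mock arrays at 0-30 min, 12.28, 12.42 and 12.59 at 30-60 min, and 11.17, 11.48 and 11.55 at 150-180 min. Jun read 12.24, 12.41 and 12.53, then 12.40, 12.05 and 12.39, then 11.23, 11.20 and 11.57 in the same windows. For both genes the first windows overlapped and the last lay below them. Atf3, a stress-induced bZIP factor, read 7.31, 7.39 and 7.69, then 6.58, 6.89 and 6.81, then 4.28, 4.75 and 4.50, so that no window overlapped another.

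Egr1 stayed near the top of the scale, with 13.44, 13.55 and 13.65 at 0-30 min, 13.60, 13.55 and 13.52 at 30-60 min, and 13.08, 13.02 and 13.18 at 150-180 min. Myc, a growth-promoting bHLH factor, read 11.37, 11.49 and 11.54, then 11.64, 11.89 and 12.20, then 11.001, 10.87 and 11.54. Its last window overlapped the first, and the middle one lay above both. Npas4, a bHLH-PAS factor best known from neurons, had the widest swing: 7.90, 7.19 and 7.52, then 9.90, 9.76 and 9.93, then 5.66, 5.92 and 5.06. Arc, a synaptic gene, read 8.02, 7.83 and 8.15, then 7.14, 8.71 and 8.22, then 3.47, 4.14 and 4.35.

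Between 30-60 and 0-30 min in mock, 17 members were higher (42.5%) and 4 lower (10%), while 9.05% of all genes were higher and 51.8% lower in limma at an adjusted p under 0.05. The members' median difference was 0.293 and that of all genes -0.518. Because so many genes differed, the common median was used here too. With it 30 members were higher and 0 lower, against 26.5% and 22.2% of all genes. This shift moves all genes of an array alike, whatever their level. Members are mostly bright genes: in mock 0-30 min array 1 their median was 11.391, against 7.136 over all genes tested. The part of signal level in the mock contrasts between windows was not tested. Npas4 rose by 2.33 ± 0.24 (SE, n = 3 arrays each here and below; adjusted p = 2.23e-09) and Klf10, a TGF-beta-inducible KLF factor, by 1.82 ± 0.11 (adjusted p = 8.36e-14). Nr4a2 rose by 1.65 ± 0.24, Gadd45b, a stress protein, by 1.44 ± 0.20, Dusp5, a phosphatase that acts on ERK, by 1.39 ± 0.20 and Nr4a3 by 1.16 ± 0.20. The 0-30 min mean of Nr4a3 (3.28) lay under the filter level, so the size of its rise is not well measured. The 4 lower genes were Jund (-0.82 ± 0.31), Klf2 (-0.73 ± 0.27), Atf3 (-0.70 ± 0.18) and Srf (-0.36 ± 0.14), and none of these 4 calls held with the common median. Leaving out mock 30-60 min array 1 also ended the calls of Jund, Klf2 and Srf, as did leaving out 0-30 min array 2 for Jund, array 2 or 3 for Klf2, and array 1 or 3 or 30-60 min array 3 for Srf (adjusted p up to 0.263).

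Between 150-180 and 30-60 min in mock, 0 members were higher and 34 lower (85%), while 53.4% of all genes were higher and 10.7% lower. The members' median was -0.99 and that of all genes 0.547. With the common median 37 members were lower and 0 higher, against 28.5% and 25.6% of all genes. Npas4 fell 19.9-fold (-4.32 ± 0.24, adjusted p = 4.63e-15) and Arc 16.4-fold (-4.04 ± 0.42, adjusted p = 1.8e-09). Btg2, an antiproliferative cofactor of mRNA deadenylation, fell by 2.95 ± 0.24, Dusp5 by 2.58 ± 0.20, Egr3 by 2.54 ± 0.17 and Zfp36 by 2.51 ± 0.24. All 6 EGR and NR4A genes and all 8 nuclear regulators of the group that holds Myc and Srf fell, as did 8 of the 9 AP-1 and bZIP genes. The 6 members that were not called were Jund, Klf6, Btg1, Dusp1, Plk2, a polo-like kinase, and Rhob, a small GTPase, with differences between -0.33 and 0.18. Fosb was called (-1.64 ± 0.48), but without mock 150-180 min array 1 its adjusted p was 0.0976. Nr4a2 (-0.59 ± 0.24) and Klf2 (-0.65 ± 0.27) were also lost without that array or without 30-60 min array 2 or 3, and Klf2 without 150-180 min array 3 as well (adjusted p up to 0.209). The 150-180 min means of Arc (3.99) and Fosb (3.83) lay under the filter level, where the size of a fall is not well measured.

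Over the whole span, 150-180 against 0-30 min in mock, 1 member was higher and 23 lower (57.5%), against 4.85% and 4.84% of all genes, and with the common median the counts were again 1 and 23, against 4.71% and 5.42%. The members' median was -0.771 and that of all genes 0.033. Arc fell 16.2-fold (-4.02 ± 0.42) and Atf3 7.75-fold (-2.95 ± 0.18, adjusted p = 3.59e-13). Fosb fell by 2.51 ± 0.48, Zfp36 by 2.43 ± 0.24, Btg2 by 2.33 ± 0.24 and Npas4 by 1.99 ± 0.24. Nr4a2, a nuclear receptor that works without a known ligand, was the member that rose, by 1.06 ± 0.24 (adjusted p = 0.00381). It read 7.21, 7.66 and 7.46 in mock at 0-30 min, 9.01, 9.16 and 9.12 at 30-60 min, and 8.16, 8.64 and 8.71 at 150-180 min, and the 3 windows did not overlap.

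**Figure D1:**
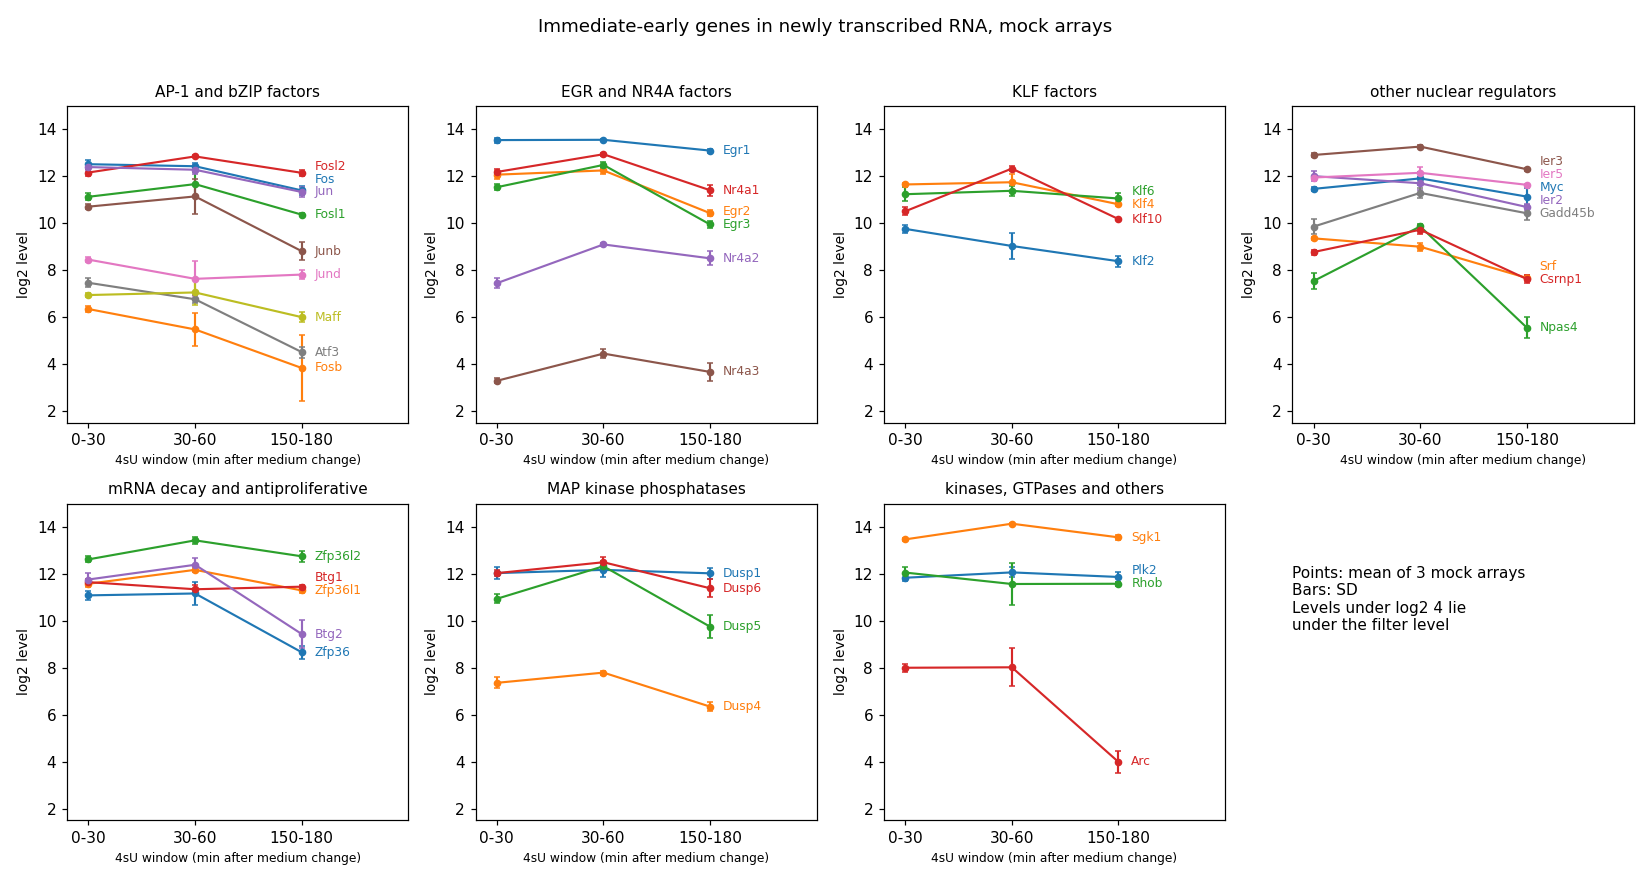
Log2 levels of the 40 tested immediate-early genes in mock arrays (y axis) at the 3 windows of 500 µM 4sU (x axis, min after the medium change), with 1 panel for each role; points are means of 3 arrays and bars are SDs. Most lines drop to 150-180 min, steepest for Npas4 (-4.32 against 30-60 min) and Arc (-4.04), while Dusp1 differs by at most 0.15 between windows.

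Whether IFN alpha changed these genes beyond the medium change was asked within each window. In the fit without pairing it did so for 1 member, and with the array number as a block for up to 4 in the paired windows. At 0-30 min 0 of 40 members were called in limma, against 0.377% of all genes higher and 0 lower. Before adjustment p was under 0.05 for 1 higher and 1 lower member, against 1.06% and 0.377% of all genes. At 30-60 min 1 member was higher (2.5%) against 2.4% of all genes, and 0 were lower against 0.189%. At 150-180 min the count was again 1 higher, against 2.57%, and 0 lower, against 0.115%. At 0-60 min it was 1 higher, against 1.9%, and 0 lower, against 0.0734%. Each of these shares in members is 1 gene, close to the share over all genes. The members' median difference lay between 0.023 and 0.080 over the 4 windows.

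That gene was Csrnp1, which encodes a cysteine- and serine-rich nuclear protein. At 30-60 min it read 10.65, 10.85 and 11.06 in IFN alpha arrays, against 9.56, 9.69 and 9.93 in mock, a rise of 1.13 ± 0.17 (2.19-fold, adjusted p = 1e-05). At 150-180 min it read 8.47, 8.65 and 8.55, against 7.44, 7.64 and 7.78 in mock, a rise of 0.94 ± 0.17 (adjusted p = 0.000182). The groups did not overlap in either window, and both calls held without any 1 array. At 0-30 min it read 9.50, 9.10 and 9.18, against 8.66, 8.78 and 8.87 in mock, which lay apart but did not pass (adjusted p = 0.976). The 0-60 min rise of 0.68 ± 0.17 (adjusted p = 0.0177) came from 10.83, 11.28 and 11.27, against 10.72, 10.19 and 10.43 in mock. It was lost without mock array 2 or IFN alpha array 2 or 3 (adjusted p up to 0.122), with the common median and in a fit of that window's arrays alone (adjusted p up to 0.883).

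The classical members had no call with IFN alpha in the fit without pairing. Fos read 12.69, 12.63 and 12.50 at 0-30 min, 12.45, 12.92 and 12.85 at 30-60 min and 10.86, 11.15 and 11.03 at 150-180 min, and its differences from mock were 0.09, 0.31 and -0.39 (each ± 0.23). Egr1 differed from mock by 0.04, 0.10 and 0.03 (each ± 0.10), Jun by 0.11, 0.05 and 0.27 (± 0.16), Myc by -0.04, -0.04 and 0.24 (± 0.20) and Atf3 by -0.25, 0.31 and 0.22 (± 0.18). With the array number as a block, Btg1 (adjusted p = 0.0415) and Zfp36 (0.0308) passed as well at 30-60 min, for 3 higher and 0 lower members, against 3.67% and 1.65% of all genes under the block. At 0-60 min Btg1 (0.00252), Fos (0.00301) and Zfp36 (0.00539) did, for 4 higher and 0 lower, against 3.75% and 1.05%. In mock 0-60 min array 1, which stood apart, Fos read 10.94, against 11.87 and 12.46 in mock arrays 2 and 3. Btg1 read 10.59 there, against 11.94 and 11.90. The blocked fit was not run without this array.

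IFN gamma moved more members, in both directions. The comparisons use the same mock arrays as those of IFN alpha. At 0-30 min 2 members were higher and 0 lower, against 0.755% and 0.0419% of all genes. At 30-60 min 5 were higher (12.5%) and 5 lower (12.5%), against 3.83% and 2.07%. At 150-180 min 8 were higher (20%) and 1 lower (2.5%), against 4.36% and 1.54%. At 0-60 min 3 were higher (7.5%) and 6 lower (15%), against 3.84% and 2.94%. The members' median difference was 0.033 at 0-30 min, -0.138 at 30-60 min, 0.059 at 150-180 min and -0.141 at 0-60 min, against -0.021, -0.054, -0.101 and -0.050 over all genes.

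The block by array number raised these counts to 4 higher and 0 lower at 0-30 min, against 1.12% and 0.189% of all genes under the block. For 30-60 min it gave 8 higher and 14 lower members, against 5.76% and 6.43% of all genes, and at 0-60 min 7 higher and 14 lower, against 8.59% and 11.8%. A fit of the 0-60 min arrays alone, which holds the array that stood apart, called 0 members, against 1.11% of all genes higher and 0.157% lower. A fit of the 150-180 min arrays alone called 8 higher and 6 lower, against 6.15% and 5.05%.

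Zfp36, the tristetraprolin gene, was called in all 4 windows. At 0-30 min it read 12.34, 12.33 and 12.39 in IFN gamma arrays, against 10.85, 11.20 and 11.21 in mock (1.27 ± 0.24, 2.40-fold, adjusted p = 0.00238). At 30-60 min it read 12.14, 12.64 and 12.70, against 10.62, 11.33 and 11.56 (1.33 ± 0.24, adjusted p = 0.000221). In the 150-180 min window it read 9.60, 10.15 and 10.08, against 8.71, 8.37 and 8.90 (1.28 ± 0.24, adjusted p = 0.000341). The difference was thus about the same size while the level itself fell in both groups, and no array of IFN gamma overlapped mock. At 0-60 min the rise was 1.05 ± 0.24 (adjusted p = 0.00433).

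Csrnp1 rose with IFN gamma too. It read 9.70, 9.49 and 9.55, against 8.66, 8.78 and 8.87 in mock, at 0-30 min (0.81 ± 0.17, adjusted p = 0.0061), a call lost without mock array 1 or IFN gamma array 1 (adjusted p up to 0.072). At 30-60 min it read 10.62, 10.88 and 10.77, against 9.56, 9.69 and 9.93 (1.03 ± 0.17, adjusted p = 3.47e-05). At 150-180 min it read 9.40, 9.51 and 9.63, against 7.44, 7.64 and 7.78 (1.89 ± 0.17, 3.72-fold, adjusted p = 1.5e-10), the largest rise of a member against mock in any window. No IFN gamma array overlapped mock in these windows.

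Btg1, an antiproliferative partner of the deadenylase complex, read 12.39, 12.79 and 12.64 at 30-60 min of IFN gamma, against 11.23, 11.54 and 11.27 in mock (1.26 ± 0.21, adjusted p = 5.16e-05). In the 150-180 min arrays it read 12.37, 12.57 and 12.53, against 11.40, 11.45 and 11.53 (1.03 ± 0.21, adjusted p = 0.000813). Its 2 other probe sets were also called in both windows. At 0-30 min it read 12.31, 11.87 and 12.30, against 11.58, 11.59 and 11.78, and did not pass (0.51 ± 0.21). The 0-60 min difference of 1.19 ± 0.21 was 0.75 without mock array 1, which read 10.59 against 11.94 and 11.90 in the other mock arrays, and remained called.

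Btg2 and Zfp36l2 passed in 1 window each. Btg2 was called at 0-60 min (0.78 ± 0.24, adjusted p = 0.0439), and this call was lost in 5 of 6 fits that left out 1 array (all but mock array 2, adjusted p up to 0.193). Zfp36l2, a relative of Zfp36, was called at 150-180 min (0.43 ± 0.13, adjusted p = 0.0433), with overlapping arrays, and lost the call without mock array 1 or 2 or IFN gamma array 2 or 3 (up to 0.303). Zfp36l1 was not called against mock in any window.

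Among AP-1 and bZIP genes, Atf3 was the one called in more than 1 window. It read 7.42, 7.74 and 7.62 at 0-30 min of IFN gamma, against 7.31, 7.39 and 7.69 in mock, with overlap (0.13 ± 0.18). At 30-60 min it read 7.72, 7.96 and 7.83, against 6.58, 6.89 and 6.81 (1.08 ± 0.18, adjusted p = 4.21e-05). In the last window it read 6.27, 6.18 and 6.16, against 4.28, 4.75 and 4.50 (1.69 ± 0.18, 3.24-fold, adjusted p = 6.67e-09). In these later windows the groups lay apart. At 0-60 min the groups overlapped (7.82, 8.21 and 8.10, against 8.25, 8.10 and 8.23), and Atf3 was not called.

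Jun rose at 150-180 min, with 12.10, 12.28 and 11.71 in IFN gamma arrays, against 11.23, 11.20 and 11.57 in mock (0.70 ± 0.16, adjusted p = 0.00314, and 0.0508 without IFN gamma array 2). At 0-30 and 30-60 min its groups overlapped, with 12.46, 12.63 and 12.66 and then 12.39, 12.34 and 12.32 in IFN gamma arrays. Maff, a small MAF protein, rose at 150-180 min, with 6.58, 6.93 and 7.43, against 5.82, 5.92 and 6.25 in mock (0.98 ± 0.27, adjusted p = 0.0181). This call was lost without mock array 1 or 2 or IFN gamma array 2 or 3 (up to 0.214).

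Fos lay higher with IFN gamma in every array of the first windows and was not called. It read 13.02, 12.90 and 13.05, against 12.31, 12.59 and 12.65 in mock, at 0-30 min (0.47 ± 0.23, adjusted p = 1). At 30-60 min it read 12.99, 13.12 and 13.10, against 12.28, 12.42 and 12.59 (0.64 ± 0.23, adjusted p = 0.112, and 0.00079 with the block). At 150-180 min it read 11.38, 11.60 and 11.41 and overlapped mock (0.06 ± 0.23).

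Egr1 did not separate in any window: it read 13.57, 13.56 and 13.63 at 0-30 min, 13.63, 13.67 and 13.57 at 30-60 min and 12.99, 13.24 and 13.22 at 150-180 min of IFN gamma, with differences from mock of 0.04, 0.07 and 0.06 (± 0.10). These levels are near the top of the scale. Its relatives moved in opposite directions. Egr2 rose at 30-60 min (12.92, 12.85 and 12.98, against 12.38, 12.07 and 12.31 in mock, 0.66 ± 0.18, adjusted p = 0.0172) and at 150-180 min (0.62 ± 0.18, adjusted p = 0.0296). The Egr2 calls were lost in 3 of 6 fits without 1 array (mock array 2, IFN gamma array 1 or 3, up to 0.111) and in 5 of 6 (all but mock array 1, up to 0.131). Egr3 fell at 150-180 min, with 9.01, 9.09 and 8.81, against 9.78, 9.94 and 10.12 (-0.98 ± 0.17, adjusted p = 7.71e-05), a call that held without any 1 array.

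Of the NR4A genes Nr4a2 and Nr4a3 were called lower, and Nr4a1 was called in no window of the fit without pairing (differences of -0.24 to -0.41, each ± 0.13). With the block Nr4a1 passed at 30-60 min (adjusted p = 0.0147) and at 0-60 min (0.00776). Nr4a2 read 7.79, 8.20 and 7.55 at 30-60 min of IFN gamma, against 9.01, 9.16 and 9.12 in mock, 2.38-fold lower (-1.25 ± 0.24, adjusted p = 0.000488), and 3 of its 4 other probe sets that passed the filter were called lower too. At 0-30 min (6.51, 6.61 and 6.74, against 7.21, 7.66 and 7.46) and at 150-180 min (8.06, 8.01 and 7.85, against 8.16, 8.64 and 8.71) the arrays also lay below mock, but Nr4a2 was not called (-0.82 and -0.53, each ± 0.24). Nr4a3 read 3.42, 3.13 and 3.42 at 30-60 min, against 4.31, 4.67 and 4.35 (-1.12 ± 0.20, adjusted p = 0.000131). The IFN gamma level of Nr4a3 lay under the filter at 4, so the size of this fall is not well measured.

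Among interferon differences from mock the largest fall of a member was that of Dusp1, the phosphatase MKP-1, which acts on p38, JNK and ERK. At 30-60 min it read 10.22, 10.40 and 10.68 in IFN gamma arrays, against 11.97, 12.03 and 12.53 in mock, 3.34-fold lower (-1.74 ± 0.23, adjusted p = 1.64e-06). At 0-60 min it read 9.17, 10.31 and 10.16, against 11.07, 11.61 and 11.67 (-1.57 ± 0.23, adjusted p = 1.36e-05). Both calls held without any 1 array. At 0-30 min it read 11.45, 11.71 and 11.66, against 11.77, 12.09 and 12.25, and at 150-180 min 11.27, 11.70 and 11.44, against 11.81, 11.99 and 12.29. These arrays lay below mock without passing (-0.43 and -0.56, each ± 0.23). Its relative Dusp4 fell at 30-60 min (-0.73 ± 0.18, adjusted p = 0.00827, and 0.054 without IFN gamma array 2) and at 0-60 min (-0.63 ± 0.18, adjusted p = 0.0275, lost without mock or IFN gamma array 1, up to 0.178). Dusp5 and Dusp6 were called in no interferon against mock comparison without the block, and with it Dusp6 was higher at 0-60 min of IFN gamma (0.74, adjusted p = 0.00034). In mock array 1 of that window, which stood apart, Dusp6 read 11.29, against 12.42 and 12.48 in the other mock arrays.

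Myc read 10.83, 11.41 and 11.51 at 30-60 min of IFN gamma, against 11.64, 11.89 and 12.20 in mock (-0.66 ± 0.20, adjusted p = 0.0444). This call was lost without mock array 2 or 3 or IFN gamma array 1 or 2 (up to 0.338). At 0-60 min it read 10.75, 11.09 and 11.18, against 11.84, 11.56 and 11.70 (-0.69 ± 0.20, adjusted p = 0.0309, lost without mock array 1 or IFN gamma array 1 or 2, up to 0.142). At 0-30 min it read 11.12, 11.01 and 11.14, below mock without passing, and at 150-180 min 10.70, 11.12 and 11.33, overlapping it. The other falls at 0-60 min were in Klf2, a shear-responsive KLF factor (8.99, 9.56 and 9.68, against 10.98, 10.09 and 10.43, -1.09 ± 0.27, adjusted p = 0.00838), Nr4a3 (-0.74 ± 0.20, adjusted p = 0.0167) and Srf (-0.58 ± 0.14, adjusted p = 0.00838). Without mock array 1, which stood apart, Klf2 (-0.85) and Srf (-0.46) were not called. Klf2 was not called without IFN gamma array 1 either, nor Srf without IFN gamma array 2, nor Nr4a3 without IFN gamma array 2 or 3 (adjusted p up to 0.0825).

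**Figure D2:**
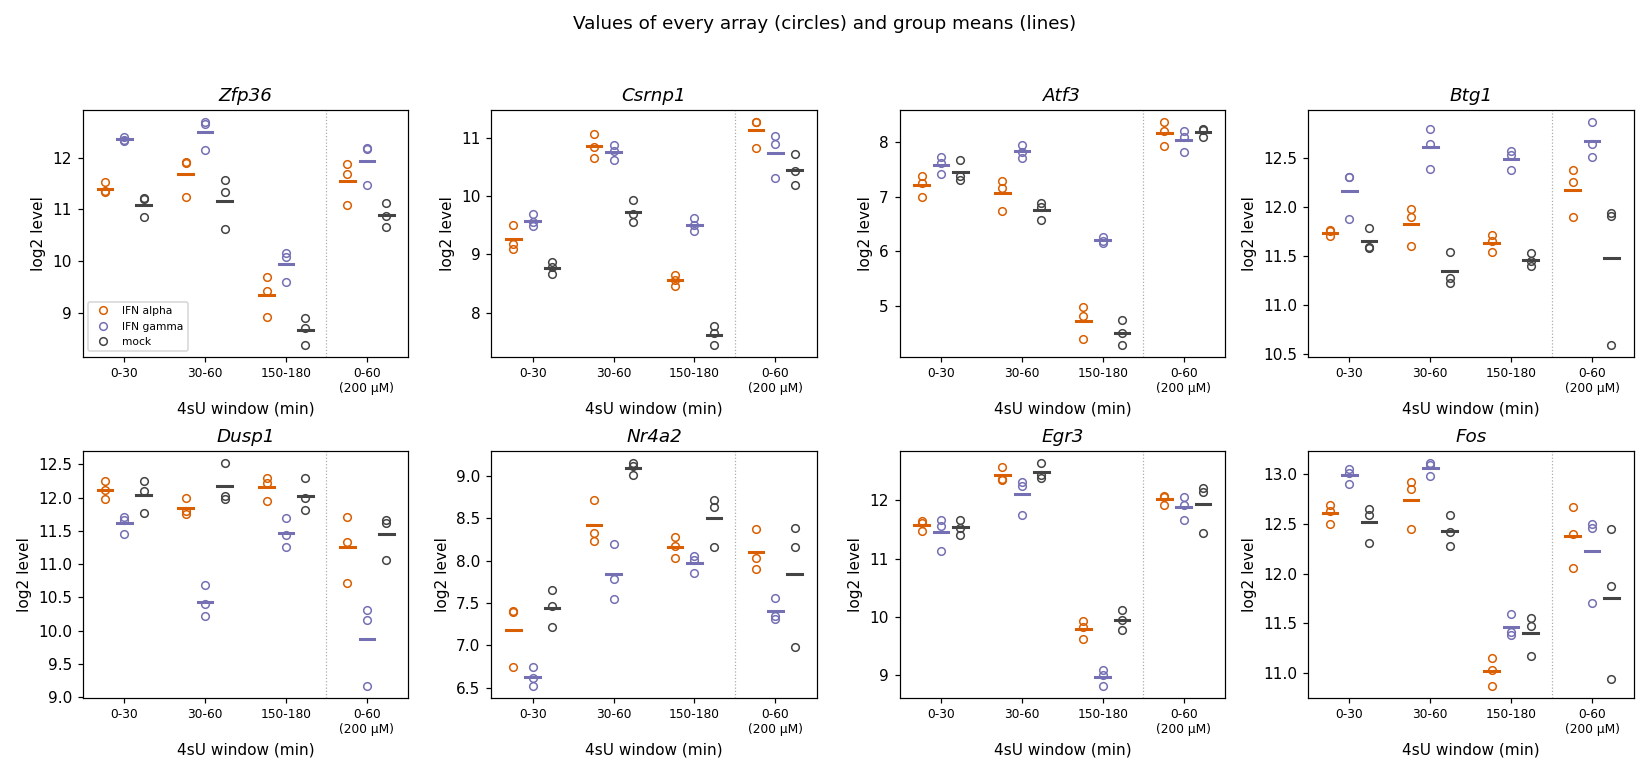
Log2 level (y axis) of 8 immediate-early genes in every array (circles) and as group means (lines) for IFN alpha, IFN gamma and mock in the 3 windows of 500 µM 4sU and in the 0-60 min window of 200 µM. IFN gamma arrays of Zfp36 lie above mock in every window, those of Dusp1 lie below it (10.22 to 10.68, against 11.97 to 12.53 in mock, at 30-60 min), and Atf3 separates from mock only at 30-60 and 150-180 min.

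**Figure D3:**
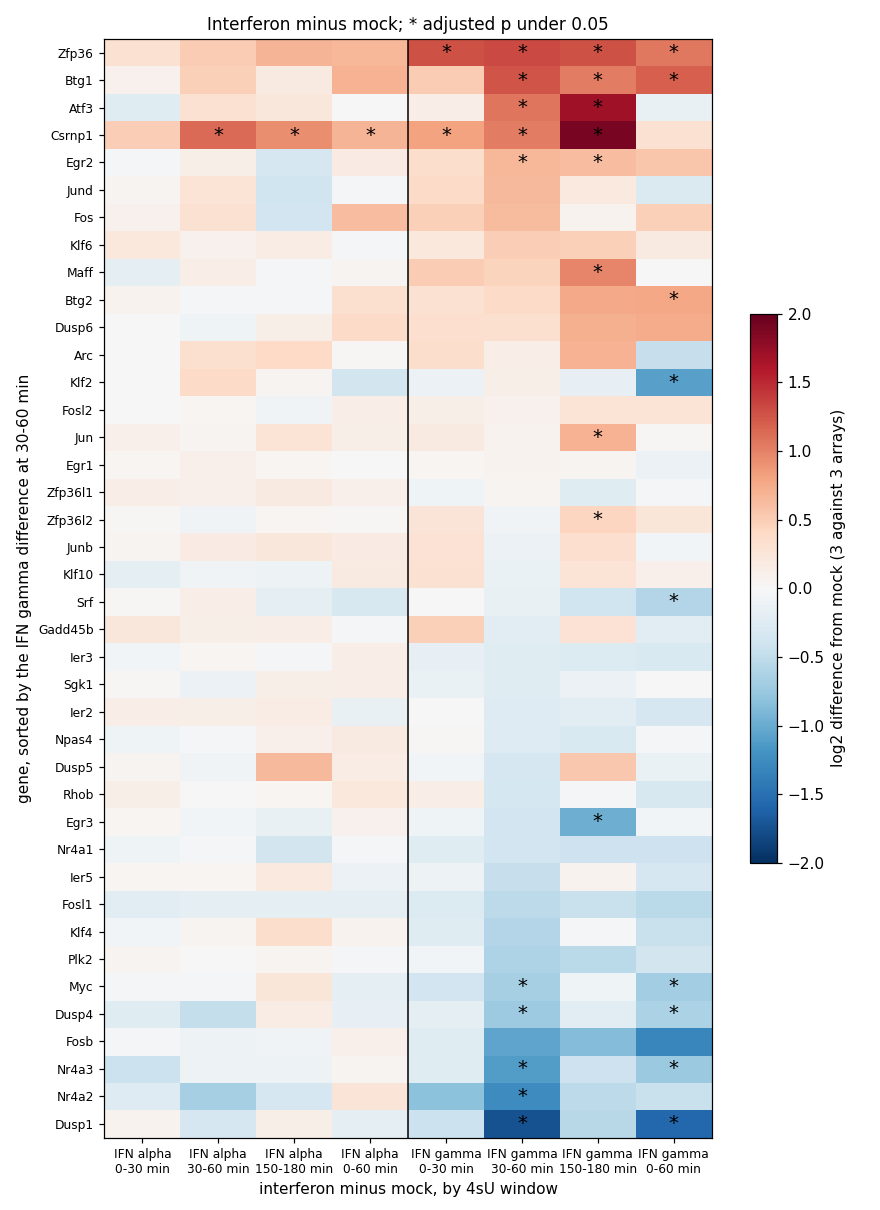
Colour gives the log2 difference from mock for the 40 tested members (y axis, sorted by IFN gamma at 30-60 min) in each window of IFN alpha (left) and IFN gamma (right); a star marks an adjusted p under 0.05. IFN alpha has 3 stars, all on Csrnp1, and IFN gamma has 30, with the strongest colours on Csrnp1 and Atf3 (1.89 and 1.69 at 150-180 min) and on Dusp1 (-1.74 at 30-60 min).

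Whether the interferons differed from each other was tested directly, IFN alpha minus IFN gamma in each window. At 0-30 min 0 members were higher and 1 lower (2.5%), against 0.189% and 0.524% of all genes. At 30-60 min 4 were higher (10%) and 3 lower (7.5%), against 2.97% and 2.73%, at 150-180 min 2 were higher (5%) and 6 lower (15%), against 1.89% and 2.79%, and at 0-60 min 2 were higher and 0 lower, against 2.36% and 1.66%. With the block by array number 1 member was higher and 3 lower at 0-30 min, against 0.43% and 0.797% of all genes under the block. At 30-60 min the blocked counts were 12 and 5, against 5.73% and 4.57%, and at 0-60 min 14 and 3, against 6.46% and 3.08%.

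Dusp1 was 1.41 ± 0.23 higher in IFN alpha at 30-60 min, with 11.75, 11.80 and 11.99, against 10.22, 10.40 and 10.68 in IFN gamma arrays (adjusted p = 5.67e-05). At 0-60 min the difference was 1.37 ± 0.23 (adjusted p = 0.000152). Nr4a3 was higher in IFN alpha by 1.02 ± 0.20 and 0.78 ± 0.20 in the same windows, with the limit on its low level given above. The other genes higher in IFN alpha at 30-60 min, Klf4, a pluripotency-linked KLF factor (0.64 ± 0.19, adjusted p = 0.0339), and Ier5 (0.50 ± 0.15, adjusted p = 0.0343), lost their calls without IFN alpha array 2 or 3 or IFN gamma array 1, and Klf4 also without IFN gamma array 3 (up to 0.321).

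Atf3 read 4.98, 4.82 and 4.38 at 150-180 min of IFN alpha, against 6.27, 6.18 and 6.16 of IFN gamma (-1.48 ± 0.18, adjusted p = 1.82e-07). Egr2 (-0.96 ± 0.18, adjusted p = 0.00034), Csrnp1 (-0.96 ± 0.17, adjusted p = 0.000116) and Btg1 (-0.86 ± 0.21, adjusted p = 0.00782) were lower in IFN alpha in that window too, each without overlap. Egr3 ran the other way, with 9.63, 9.93 and 9.83 in IFN alpha, against 9.01, 9.09 and 8.81 in IFN gamma arrays (0.83 ± 0.17, adjusted p = 0.000982). Csrnp1, called with both interferons at 30-60 min, was therefore shown to differ between them only at 150-180 min. The remaining calls were each lost in at least 1 of the fits that left out 1 array. At 150-180 min Maff (-1.001) was lost without IFN alpha array 1 or IFN gamma array 2 or 3, Zfp36l1 (0.42) without array 3 of either, and Klf10 (-0.38) without any 1 of the 6 (adjusted p up to 0.216). At 30-60 min Zfp36 (-0.81) and Btg1 (-0.78) were lost without IFN alpha array 1 or IFN gamma array 2 or 3 (up to 0.278), and Atf3 (-0.77) without IFN alpha array 1 (0.0532). Klf10 at 0-30 min (-0.50) was lost without IFN alpha array 2 or 3 or IFN gamma array 1 or 3 (up to 0.268). Nr4a3 at 0-60 min was lost without IFN alpha array 1 or IFN gamma array 2 or 3 (up to 0.0937).

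The change of an interferon's difference from mock between consecutive 30 min windows was tested as a difference of differences, in which consecutive tests share arrays. For IFN alpha 0 members were called in limma from 0-30 to 30-60 min, against 1.28% of all genes higher and 0.0419% lower, and 0 from 30-60 to 150-180 min, against 0.43% and 0.0419%. Before adjustment p was under 0.05 for 2 higher and 0 lower members at the first step, against 3.28% and 1.46% of all genes, and for 2 higher and 1 lower at the second, against 2.01% and 3.02%. For IFN gamma 1 was higher and 1 lower at the first step, against 1.27% and 0.231%, and 1 higher and 0 lower at the second, against 1.2% and 0.692%. The first pair was Atf3, with differences from mock of 1.08 at 30-60 min and 0.13 at 0-30 min, and Dusp1, with -1.74 and -0.43, and the block by array number raised the calls of this step to 2 higher and 6 lower, against 2.33% and 1.29% of all genes. The gene of the second step was Csrnp1, with 1.89 at 150-180 min and 1.03 at 30-60 min.

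Genes around the members were counted from lists of the same pathway. Of 34 other growth-factor induced genes, 31 were tested. Between 30-60 and 0-30 min in mock 17 were higher and 4 lower, where 9.05% of all genes were higher and 51.8% lower. Between 150-180 and 30-60 min 3 were higher and 24 lower, where 53.4% of all genes were higher and 10.7% lower. The medians were 0.570 and -1.012, against -0.518 and 0.547 over all genes. Hbegf, an EGF receptor ligand, fell by 2.23 ± 0.12 and Ereg, another, by 2.52 ± 0.21 at that second step. With IFN gamma at 30-60 min 1 of the 31 was higher and 7 lower, where 3.83% of all genes were higher and 2.07% lower. Il6, a cytokine, was the higher 1 (1.35 ± 0.30), and Lif, a cytokine of the same family, fell by 2.11 ± 0.29, Sik1, a salt-inducible kinase, by 1.25 ± 0.19 and Ccnd1, cyclin D1, by 1.01 ± 0.18. At 150-180 min, where 4.36% and 1.54% of all genes were called, 5 were higher and 1 lower, led by the chemokines Ccl7 (2.76 ± 0.31) and Ccl2 (2.08 ± 0.14), which rose with IFN alpha as well (2.24 ± 0.31 and 1.84 ± 0.14).

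Of 33 genes of upstream growth factor and MAP kinase signalling, 26 were tested. Between 150-180 and 30-60 min in mock 10 were higher and 7 lower, with a median of 0.217, where 53.4% of all genes were higher and 10.7% lower. With IFN gamma 2 were higher and 2 lower both at 30-60 min (all genes 3.83% and 2.07%) and at 150-180 min (4.36% and 1.54%). Crem, a CRE-binding factor whose short forms repress, rose by 1.99 ± 0.33 at 30-60 min, to a mean of 5.03, against 3.04 in mock. In the last window it rose by 2.76 ± 0.33, to 6.45, against 3.70 in mock. Both mock levels lay under the filter level of 4, so the size of these rises is not well measured. The IFN gamma means of Crem lay above that level, so the groups where it was higher may have carried it through the filter. Its calls, and the counts that hold them, carry that limit. Spry4, a feedback inhibitor of receptor signalling, fell by 0.996 ± 0.272 and 0.886 ± 0.272 in these windows. With IFN alpha Map2k1, the kinase MEK1, rose by 1.29 ± 0.17 at 30-60 min.

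**Figure D4:**
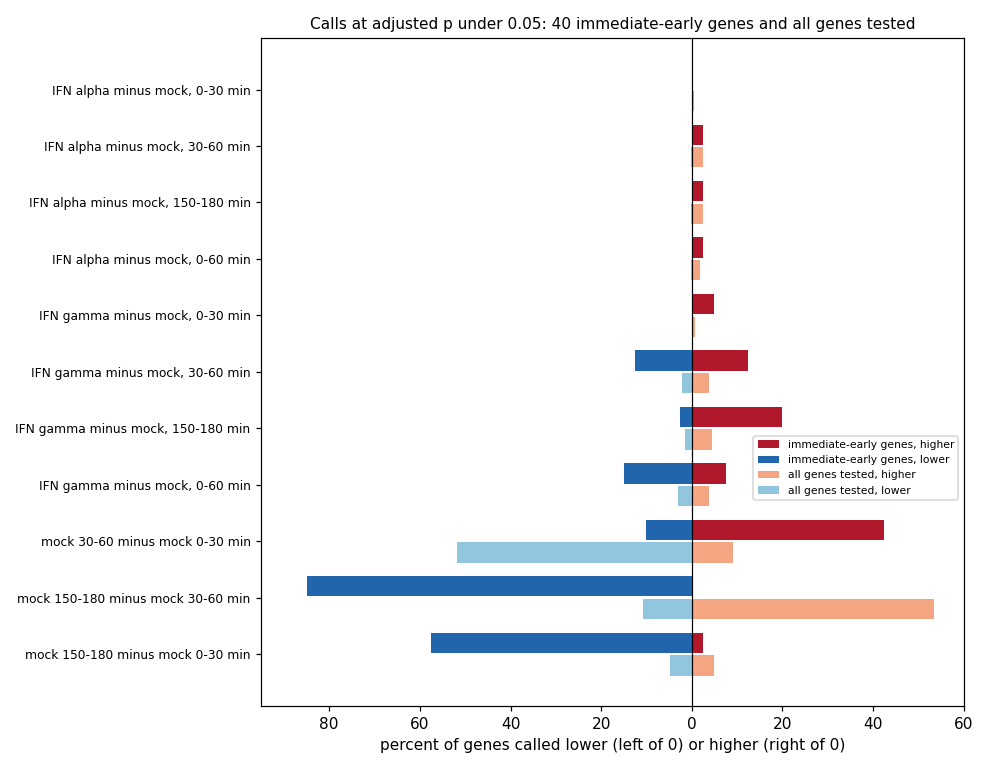
Bars give the percent of genes called higher (right of 0) or lower (left of 0) in each comparison (y axis), dark for the 40 immediate-early genes and pale for the 9538 genes tested. In the mock comparison of 150-180 with 30-60 min 85% of members are lower, against 10.7% of all genes, while the IFN alpha bars of members and of all genes are both short (2.5% and 2.4% higher at 30-60 min).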

How the data were processed

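The deposited log2 values, in a single table of 45101 probe sets, are the authors' GCRMA output, a step known per the submitters' processing notes, with no version in the sources used here. They were used without further scaling. Symbols came from the array annotation: 34945 probe sets had 1 symbol, 932 several and 9160 none, and the 64 control probe sets were dropped. Of those with 1 symbol 34741 matched a RefSeq gene ID (GRCm38.p6, used for names and promoters). The brightest probe set of each gene was kept if above log2 4 in at least 3 arrays.

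All 36 arrays entered 1 fit of 12 group means in limma 3.58.1 (R 4.3.3, data.table at version 1.17.8) through lmFit, then eBayes allowing an intensity trend (24 residual and 6.8 prior degrees of freedom). Two-sided p-values were Benjamini-Hochberg adjusted over 9538 genes in each of 19 comparisons and called at 0.05. The fit was tested on simulated data. Figures used Python 3.11.15 and matplotlib 3.10.9. The number of arrays limits the precision.

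The members, the gene lists and the comparisons were chosen with earlier results of these data known. Named with full statistics are up to 6 called members per direction with the largest difference, and with values of arrays Fos, Egr1, Jun, Myc, Atf3 and members called against mock at a log2 difference of at least 1; Npas4, Arc, Egr2, Egr3 and Maff arrays were added after their values were seen.

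Arrays of the same number in different treatments deviated together: the correlation of their deviations from group means was above 0.1 in 9 of 9 pairs at 0-30, 30-60 and 0-60 min, but in 7 of 9 at 150-180 min (lowest -0.288). The numbers were thus taken to pair arrays in the first 3 only, and a blocked value stands beside a result where it changes the call or moves a count by over 1.5 times. The alternatives dropped the filter or set it at log2 6, added 16 to the linear value, used quantile normalization, a common median or all kept probe sets, fitted each comparison's windows alone, and left out the trend. Further ones were the block, each array left out, and, chosen after seeing the data, mock 0-60 min array 1 left out throughout.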

Additional observations from a re-analysis of the deposited data

Results flagged for a closer look

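In 3 cases the difference between IFN gamma and mock changed between consecutive windows by a test of that change itself. The difference for Atf3 was 0.95 ± 0.25 larger at 30-60 than at 0-30 min on the log2 scale (adjusted p = 0.0406), with mock going lower between these windows and IFN gamma not. With arrays shifted to a common median that fall in mock was not called. The difference for Dusp1 changed by -1.31 ± 0.33 over the same step (adjusted p = 0.029). The difference for Csrnp1 was 0.86 ± 0.23 larger at 150-180 than at 30-60 min (adjusted p = 0.0457). All 3 lie close to the threshold, and each was lost in part of the fits that left out 1 array: Atf3 in 9 of 12 (adjusted p up to 0.17), Dusp1 in 7 of 12 (up to 0.132) and Csrnp1 in 9 of 12 (up to 0.175). All 3 calls were also lost with the common median and without the filter. The steps share the 30-60 min arrays. Array number within that window goes with bioC in all treatments, and its part in these changes was not tested.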

How the results depend on the processing

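Of the recomputed counts of members called, 246 stayed within 1.5 times of the reported count and 77 did not. Of the differences of single members, 3151 stayed on the same side of the threshold, 206 lost the call and 24 gained one. A change of sign was counted only where either fit called the member, which held for 2. Between 30-60 and 0-30 min in mock, Jun (0.446) and Srf (0.205) were positive with arrays shifted to a common median. In what follows, counts are members called, higher and lower together. Shares over all genes were not computed for most of these settings, and where they were, under the block, they rose too. The counts therefore show how calls moved and are no result about the members as a class.

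With the array number as a block the counts for IFN alpha against mock were 3 at 30-60, 5 at 150-180 and 4 at 0-60 min, and for IFN gamma 4 at 0-30, 22 at 30-60, 22 at 150-180 and 21 at 0-60 min. For IFN alpha against IFN gamma they were 4, 17, 21 and 17 at 0-30, 30-60, 150-180 and 0-60 min, and for the change of the IFN gamma difference 8 at each step. Blocked counts at 150-180 min are not relied on. Under the block each comparison kept all the calls reported, and it changed no call in IFN alpha at 0-30 min or at either step of IFN alpha. The fit of only the arrays compared gave 0 for IFN alpha, for IFN gamma and for their difference at 0-60 min, 14 for IFN gamma and 13 for the difference of the interferons at 150-180 min, 2 for that difference at 0-30 min, and 2 for the second step of IFN gamma. With the common median the count was 0 for IFN alpha at 0-60 min, for the interferons at 0-30 min and for both steps of IFN gamma. Quantile normalization gave 2 for IFN alpha at 0-60 min, and 1 and 2 for the steps of IFN gamma. Without the filter the count was 4 for the interferons at 30-60 min and 0 for both steps, a filter at 6 gave 2 for the interferons at 0-30 min, and adding 16 gave 0 for the second step. Without the intensity trend the counts were 0 for the interferons at 0-30 min, 4 at 30-60 min and 0 for the second step. All kept probe sets gave 1 and 0 for the steps. Leaving mock 0-60 min array 1 out of every fit gave 3 for IFN alpha at 30-60 min, 4 for IFN gamma at 0-30 min, 2 and 5 for the interferons at 0-30 and 0-60 min, and 2 for the second step. The cause of these moves was not tested.

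With 1 array left out the count for IFN alpha was 0 in the 0-30 and 1 in the 30-60 min window, 1 to 2 in that of 150-180 min, and 0 to 3 in that of 0-60 min. For IFN gamma it was 1 to 2, 8 to 13, 5 to 12 and 5 to 13 at 0-30, 30-60, 150-180 and 0-60 min, and for the interferons 0 to 1, 4 to 5, 6 to 9 and 2 to 3. In mock it was 16 to 20 for 30-60 against 0-30 min, 31 to 34 for 150-180 against 30-60 min and 22 to 25 for 150-180 against 0-30 min. For the steps of IFN alpha it was 0 and 0, and for those of IFN gamma 0 to 2 and 0 to 3. With 3 arrays a group, differences near the standard errors given are not resolved, and some that were several times their error did not pass either. At 0-30 min of IFN gamma, for example, Nr4a2 differed from mock by -0.82 ± 0.24 and was not called.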
